A study of Nothobranchius furzeri with 15 samples.

Results

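The genes described here were lower in the liver of rotenone-treated fish than in the liver of solvent controls, without overlap between single libraries. A gene belonged to the set when its highest level among 10 rotenone libraries lay below its lowest level among 5 DMSO libraries. Its ranges at the 2 rotenone doses also had to overlap, and its mean over all 15 libraries had to lie between 1 and 1000 CPM (each library's counts divided by its total after TMM scaling). Of 26739 gene identifiers in the deposited counts, 15834 passed the filter on low counts. Of those, 13673 had a mean of 1 to 1000 CPM, and 115 of these (0.841%) met the rule. Without the condition on the doses it would have been 116 (0.848%). On the 10 rotenone libraries alone, the filter on low counts kept 103 of the 115. The rest passed it only through their counts in DMSO, where they are high. The levels in the rotenone and DMSO libraries thus chose the genes, and they are given below as a description, with no test.

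Liver RNA came from 9-week-old male turquoise killifish (Nothobranchius furzeri) of the GRZ strain, an inbred and short-lived laboratory strain of an annual fish. The groups were rotenone at 15 pM (5 libraries, numbered 1 to 5 in the titles), rotenone at 150 pM (5 libraries, numbered 8 to 12) and DMSO, the solvent (5 libraries, numbered 1 to 5). All 3 groups share strain, sex, age and tissue, and the labels give no other allele or agent. They give no route or length of treatment, no tank and no sequencing batch, and do not say whether each library is a separate fish, so the spread between libraries may be partly technical.

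Rotenone is a plant-derived inhibitor of complex I, the enzyme through which NADH passes its electrons into the mitochondrial respiratory chain. The liver depends on mitochondrial respiration for gluconeogenesis and fatty acid oxidation. Its cells also carry out most of the body's breakdown of foreign compounds. None of the identifiers was found among 38438 genes of the reference table used here (assembly NfurGRZ-RIMD1), and neither deposited table gives names for them. No function, pathway or cell type can therefore be given to any of the 115 genes, and the label liver could not be checked against marker genes. Only 2 identifiers are printed, and other genes are placed by their rank. In whole-tissue RNA, fewer cells of a type and less RNA per cell cannot be told apart.

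Total counts ranged from 22185038 to 35672589 per library. Library 4 of the 15 pM group stood apart, with a median correlation of 0.855 with the rest of its group over all genes tested, against 0.936 to 0.972 in the other 14 libraries. Values without it are given where they matter. Where a gene had no count, up to 3 counts remain possible from counting error alone, which is 0.0732 to 0.125 CPM in a library. Of the 1150 values of the 115 genes in rotenone libraries, 1 was a count of 0 and 12.2% were below 10 counts. In DMSO the lowest count of any of the 115 genes in any library was 25.

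Together the 115 genes were less abundant in every rotenone library than in any DMSO library, which the rule had fixed in advance. Their summed level was 1120, 1014, 1167, 1544 and 1255 CPM in 15 pM libraries 1 to 5. At 150 pM it was 1253, 1143, 856.5, 889.3 and 1023 CPM in libraries 8 to 12. DMSO libraries 1 to 5 held 3452, 5859, 3124, 2989 and 3423 CPM. The highest rotenone library was thus 15 pM library 4, and the lowest DMSO library was library 4. DMSO library 2 stood well above the other 4 controls. As group means the sums were 1220 ± 201 CPM at 15 pM, 1033 ± 168 CPM at 150 pM and 3769 ± 1185 CPM in DMSO (SD, n = 5 each). The ratios to DMSO were 0.324 at 15 pM and 0.274 at 150 pM. In raw counts the genes took 0.121 ± 0.0315% of a library at 15 pM, 0.105 ± 0.0232% at 150 pM and 0.383 ± 0.111% in DMSO.

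A few genes dominate that sum. Without the 2 genes of highest DMSO mean, the summed level of the other 113 was 582.3 to 795.1 CPM at 15 pM, 521.9 to 731.8 CPM at 150 pM and 1566 to 3258 CPM in DMSO. To weigh every gene alike, each was set against its own DMSO mean on the log2 CPM scale. The median over the 115 genes was -1.82, -3.08, -2.33, -1.19 and -1.72 in 15 pM libraries 1 to 5. At 150 pM it was -1.63, -2.55, -2.45, -2.70 and -2.38 in libraries 8 to 12. In DMSO it was 0.06, 0.79, -0.39, -0.27 and -0.14. Over all 13673 genes of 1 to 1000 CPM, the same median stayed between -0.05 and 0.02 in every library.

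**Figure D1:**
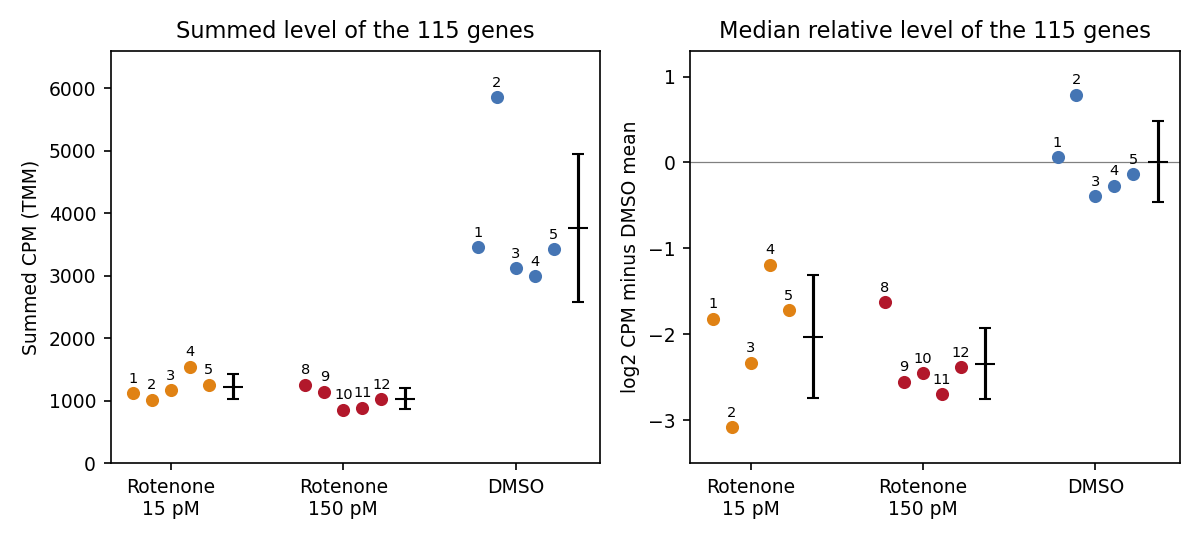
Summed level (left, CPM with TMM factors) and median level relative to the DMSO mean (right, log2 CPM) of the 115 genes in each library, with the library number above each point and the group mean ± SD (n = 5) beside it. The 10 rotenone libraries lie between 856.5 and 1544 CPM, and the 5 DMSO libraries between 2989 and 5859 CPM, with DMSO library 2 at the top.

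The gene with the highest mean level in DMSO was Nfu_g_1_018030, with 1053 bases of gene model. It stood at 290, 266, 335, 542 and 300 CPM in 15 pM libraries 1 to 5. In 150 pM libraries 8 to 12 it stood at 336, 325, 224, 229 and 306 CPM. DMSO libraries 1 to 5 held 745, 1641, 955, 843 and 1032 CPM. The highest rotenone library was 15 pM library 4, and rotenone and DMSO libraries did not overlap, as the rule requires. Its means were 347 ± 112 CPM at 15 pM, 284 ± 53.3 CPM at 150 pM and 1043 ± 352 CPM in DMSO (SD, n = 5 each). The edgeR log2 fold changes against DMSO were -1.59 (SE 0.25) at 15 pM and -1.88 (SE 0.25) at 150 pM. Depth is no limit here, since the lowest count was 6326 among rotenone libraries and 22787 among DMSO libraries.

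Among those genes of the set that averaged 5 CPM or more, Nfu_g_1_004782 had the widest gap between the groups. Its lowest DMSO library was 2.78 times its highest rotenone library. This gene model of 843 bases stood at 12.5, 3.06, 26.4, 21.9 and 21.6 CPM in 15 pM libraries 1 to 5. In 150 pM libraries 8 to 12 it stood at 19.1, 4.16, 6.45, 12 and 14 CPM. DMSO libraries held 86.0, 206, 73.4, 104 and 111 CPM. The 2 doses overlapped over most of their range, and the same DMSO library 2 was the highest. Means were 17.1 ± 9.34 CPM at 15 pM, 11.1 ± 5.96 CPM at 150 pM and 116 ± 52.6 CPM in DMSO (SD, n = 5 each). The log2 fold changes were -2.76 (SE 0.53) at 15 pM and -3.38 (SE 0.54) at 150 pM, or 6.79-fold and 10.4-fold lower.

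**Figure D2:**
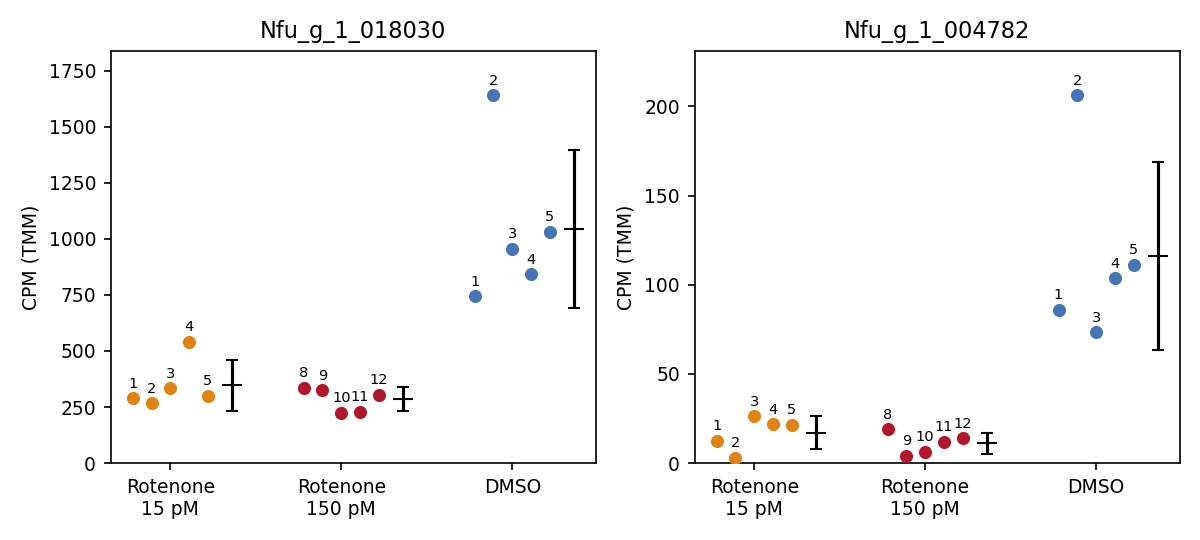
Level of the gene with the highest DMSO mean (left) and of the gene with the widest gap among genes of at least 5 CPM (right), in CPM with TMM factors, for each library; numbers are library numbers and bars are the group mean ± SD (n = 5). Nfu_g_1_018030 reaches 542 CPM in its highest rotenone library and 745 CPM in its lowest DMSO library, and Nfu_g_1_004782 reaches 26.4 and 73.4 CPM.

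Other abundant genes of the set followed. Second in DMSO mean was a gene model of 496 bases. It stood at 132 to 207 CPM at 15 pM, 110 to 206 CPM at 150 pM and 402 to 960 CPM in DMSO. Per length it was the most abundant, at 360 CPM per kilobase at 15 pM, 318 at 150 pM and 1210 in DMSO, above the 329, 270 and 991 of Nfu_g_1_018030. The remaining genes were of modest level. A mean of 1 to 10 CPM was found for 86 of the 115 (74.8%), against 51.4% of the 13673 genes. Another 26 lay between 10 and 100 CPM, and 3 lay above 100 CPM. The median over the 115 was 4.97 CPM, against 9.57 CPM over all 13673 genes.

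The widest gap of all was in a gene of low level. It stood at 0.421, 0.184, 0.571, 1.04 and 1.06 CPM in 15 pM libraries 1 to 5. At 150 pM it stood at 0.680, 0.125, 0.302, 0.218 and 0.244 CPM in libraries 8 to 12. DMSO libraries 1 to 5 held 4.25, 27.9, 4.11, 7.10 and 6.28 CPM. DMSO library 2 was well above the other controls. The lowest DMSO library was 3.88 times the highest rotenone library, but the rotenone values rest on 3 to 29 counts, and those in DMSO on 105 to 749.

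Most gaps were narrower. The ratio of the lowest DMSO library to the highest rotenone library had a median of 1.24 (quartiles 1.09 and 1.52). It reached 2 in 5 genes and 1.5 in 30 genes, and it was below 1.1 in 35. At the edge of the rule, the last genes inside had ratios of 1.003, 1.003 and 1.002, and the first genes outside had 0.998, 0.996 and 0.994. The last one inside stood at 15.37 CPM in its highest rotenone library and 15.40 CPM in its lowest DMSO library. The first one outside stood at 2.041 and 2.037 CPM. A further 38 genes met the rule on the libraries but had a mean under 1 CPM, and 1 gene was left out because its doses did not overlap. That gene stood at 4.28 to 5.63 CPM at 15 pM, 5.68 to 7.04 CPM at 150 pM and 7.69 to 14.8 CPM in DMSO.

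How many genes met the rule depended on single libraries. Of the 10 rotenone libraries, 15 pM library 4 was the highest for 46 of the 115 genes and 150 pM library 8 for 24. This was not counted over all genes. Inside its own dose, 15 pM library 4 was the highest for 36.6% of all 13673 genes, and 150 pM library 8 for 19.4%. In DMSO the lowest library was library 3 for 54 genes (47%, against 21.4% of all 13673 genes of 1 to 1000 CPM). It was library 4 for 42 genes (36.5%, against 23.8%). Without 15 pM library 4, the rule on the remaining 14 libraries took 289 genes, 110 of the 115 among them. Without DMSO library 3 it took 174 genes, including 111 of the 115. Leaving out any other single library gave 108 to 167 genes.

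The comparison of each dose with DMSO asks how far below the controls each gene lay. At 15 pM the log2 fold changes of the 115 genes had a median of -2.10 (quartiles -2.38 and -1.37) and ran from -5.04 to -0.25. At 150 pM the median was -2.35 (quartiles -3.02 and -1.67), and the range was -6.28 to -0.22. Over all 15834 genes tested the medians were 0.03 and 0.01. The SE of a single gene's log2 fold change had a median of 0.43 at either dose. Both comparisons use the same 5 DMSO libraries. Without 15 pM library 4, the medians of the 115 genes were -2.34 at 15 pM and -2.35 at 150 pM.

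**Figure D3:**
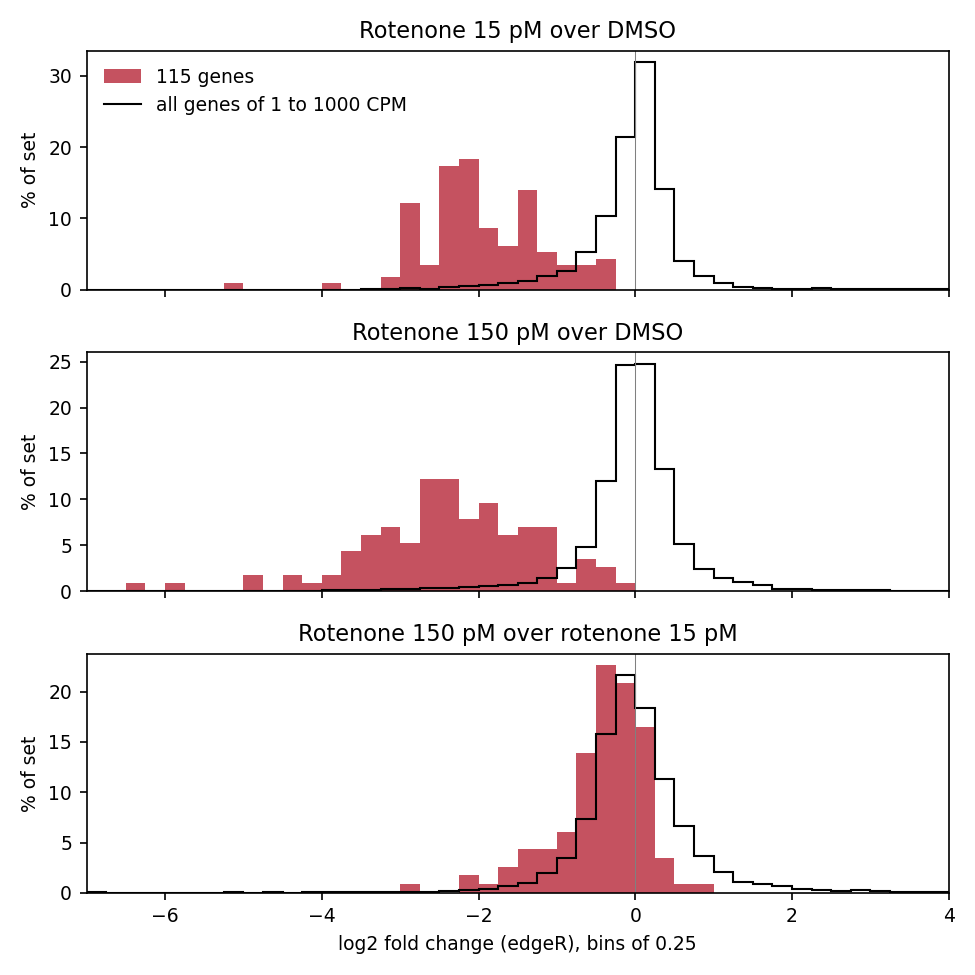
Distribution of edgeR log2 fold changes of the 115 genes (filled) and of all 13673 genes of 1 to 1000 CPM (line), as a percent of each set, for 15 pM over DMSO, 150 pM over DMSO and 150 pM over 15 pM. Medians of the 115 genes are -2.10, -2.35 and -0.37; the upper 2 distributions lie below 0 through the choice of genes.

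Grouped by size, 13 genes were under 2-fold lower at 15 pM, 39 were 2- to 4-fold lower, 59 were 4- to 8-fold lower and 4 were over 8-fold lower. At 150 pM these numbers were 9, 34, 43 and 29. Of the 59 genes that were 4- to 8-fold lower at 15 pM, 23 were over 8-fold lower at 150 pM. All these numbers include 15 pM library 4. The deepest difference at both doses was in a gene of 20.3 ± 19.5 CPM in DMSO. It stood at 0.608 ± 0.995 CPM at 15 pM and 0.261 ± 0.248 CPM at 150 pM (SD, n = 5 each). The rotenone values of this gene rest on 1 to 64 counts. The SE of its log2 fold change was 0.997 at 15 pM and 1.088 at 150 pM. Its DMSO libraries ran from 4.44 to 51.0 CPM, so the controls differed widely among themselves. All lay above the highest rotenone library at 2.37 CPM, as the rule requires. At the other end, the gene with the smallest difference at 150 pM had 18.9 CPM at 15 pM, 21.3 CPM at 150 pM and 24.9 CPM in DMSO as means.

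By edgeR's quasi-likelihood test over all 15834 genes (adjusted p under 0.05), 86 of the 115 genes were called lower at 15 pM, where 3.69% of all genes tested were. At 150 pM 105 were called lower, against 3.52% of all genes. Both calls were made for 85 genes (1.02% of all genes tested had both), 1 was called at 15 pM alone, 20 at 150 pM alone, and 9 at neither dose. The same libraries chose the genes, so nothing is read from these shares. Single libraries moved the number called at 15 pM. It dropped to 53, 41 or 57 when DMSO library 1, 2 or 5 was left out, and to 47, 52 or 57 when the one left out was 15 pM library 1, 2 or 5. It was 52 with the 10 libraries of the comparison alone. Calls over all genes, in either direction, fell as well, from 667 to 289, 258 or 318 and to 261, 310 or 378, in the same order. With the 10 libraries alone they numbered 276.

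The direct comparison of the 2 doses asks whether the genes stood lower at the higher dose. The mean was lower at 150 pM than at 15 pM for 90 of the 115 genes and higher for 25. Most of the 13673 genes of 1 to 1000 CPM also had a log2 fold change below 0 (median -0.04). The 115 genes varied together inside the groups, as given below, so they are not 115 separate results. Their log2 fold change had a median of -0.37 (quartiles -0.65 and -0.03), against -0.03 over all genes tested. Its SE for a single gene had a median of 0.43. Without 15 pM library 4 the median over the 115 genes was -0.18, and over all alternatives it ran from -0.67 to -0.18. Of the 115 genes, 98 differed by less than 2-fold between doses, and so did most of the 13673 genes of 1 to 1000 CPM. The rule asked the ranges of the doses to overlap, which limits this difference, and it is given as a description. By edgeR's test 4 of the 115 genes were called, all lower at 150 pM, where 14.1% of all genes tested were called in either direction. Leaving out 15 pM library 1, 2 or 4 changed this number to 1, 10 or 2, and leaving out 150 pM library 9, 10 or 11 changed it to 1, 1 or 2. Calls over all genes changed from 2240 to 1585, 1923 or 2400 and to 2116, 1563 or 1749, in the same order. When 150 pM libraries 8 and 10 were both left out, none of the 115 genes was called by edgeR, and 22 had an unadjusted p under 0.05. Over all genes edgeR then called 861. With all libraries, DESeq2 called 11 of the 115 (20.9% of all genes) and limma voom called 1 (11.7% of all genes).

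Of these 4 genes, the one with the largest difference between doses stood at 2.76, 0.184, 0.367, 8.63 and 2.27 CPM in 15 pM libraries 1 to 5. At 150 pM it stood at 0.600, 0.0832, 0.235, 0.254 and 0.651 CPM in libraries 8 to 12. DMSO libraries held 16.3, 47.6, 11.2, 14.3 and 12.2 CPM. The 15 pM values thus spread over a wider range than those at 150 pM, and library 4 was the highest. Another of the 4 had a tighter pattern, at 21.4 ± 4.38 CPM at 15 pM, 13.9 ± 3.25 CPM at 150 pM and 39.6 ± 6.39 CPM in DMSO (SD, n = 5 each). It differed least between doses among the 4, by a log2 fold change of -0.63 (SE 0.19).

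Within the groups the 115 genes spread more than genes in general. The median coefficient of variation over 5 libraries was 50.4% at 15 pM, 41.5% at 150 pM and 43.0% in DMSO. Over all 13673 genes, whose median level is higher, it was 28.3%, 19.9% and 16.3%. In the controls much of this was DMSO library 2. That library was the highest of the 5 DMSO libraries for 101 of the 115 genes (87.8%), against 16.6% of all 13673 genes. It lay above the mean of the other 4 controls in 112 of the 115 genes, with a median log2 difference of 0.99, whereas the median over all genes was 0.03. Without it the median coefficient of variation in DMSO was 23.6%, against 16.8% over all genes. The rule did not name the highest control, but each DMSO library enters the mean that had to reach 1 CPM, so these counts are not independent of the rule.

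Rotenone libraries were also ordered alike across genes. Library 2 was the lowest of the 15 pM group for 79 of the 115 genes (68.7%), against 18.2% of all genes. Library 4 was the highest of that group for 61 genes (53.0%), against 36.6% of all genes. At 150 pM, library 8 was the highest for 69 genes (60.0%), against 19.4%. The lowest library of that group varied more, with library 9 lowest for 32.2% of the 115 genes, against 22.5% of all genes, and library 11 for 27.8%, against 21.9%. On the log2 scale, the median over the 115 genes lay 1.06 below the rest of the group in 15 pM library 2 (-1.06) and above it in 15 pM library 4 (0.83) and 150 pM library 8 (0.74). Over all genes these medians were 0, 0.02 and 0.05.

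**Figure D4:**
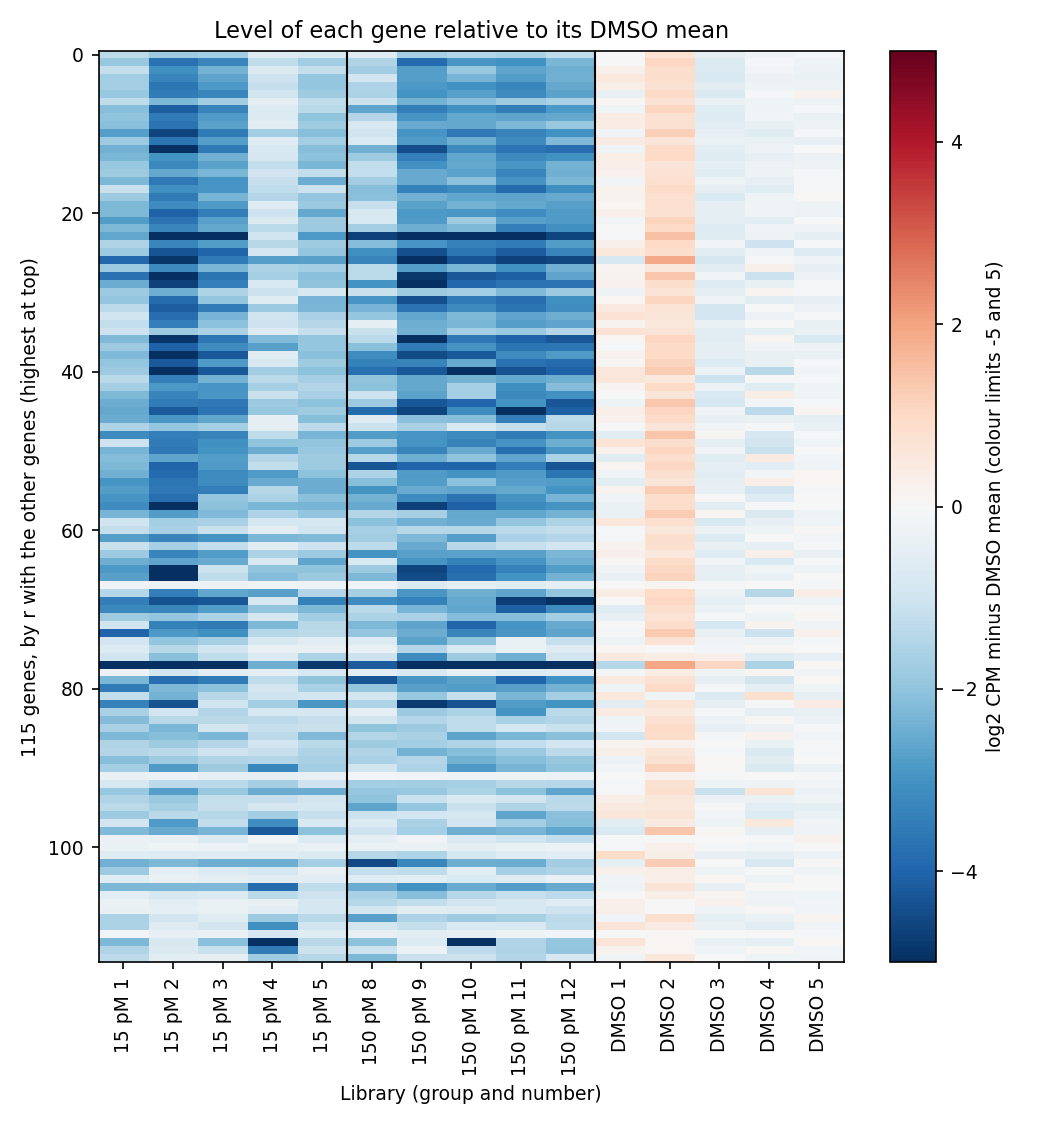
Level of each of the 115 genes (rows) in each library (columns), as log2 CPM minus the gene's DMSO mean, with colours limited at -5 and 5; rows run from the highest to the lowest correlation with the rest of the set inside the groups. DMSO library 2 is the highest control in 101 rows and 15 pM library 2 the lowest 15 pM library in 79, and 15 pM library 4 is the lowest 15 pM library in 7 of the bottom 9 rows. The order of the rows favours the last count.

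To describe this shared ordering, each gene's log2 CPM was centred inside each group, which removes the difference between group means. The rule compared the highest rotenone library with the lowest DMSO library. Spread inside the groups thus also entered the choice of genes, and centring does not remove that. The correlation of each gene's centred values with the median of the other 114 genes was then taken over the 15 libraries. Pearson's r had a median of 0.73 (quartiles 0.48 and 0.87). It was above 0.5 for 85 genes (73.9%) and above 0.8 for 47 (40.9%). The 13558 other genes of 1 to 1000 CPM had a median r of 0.03 with the median of the 115, and 12.7% of them were above 0.5. The first principal component of the centred values held 57.7% of the variance of the 115 genes. These correlations share their libraries, their depth and their scaling factors, and are given with no test.

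The ordering was not carried by the controls alone. Over the 10 rotenone libraries the median r was 0.72, and 71.3% of the genes were above 0.5, against 19.8% of the other genes. Without 15 pM library 4 the share was 67.0%, against 13.3%. Without 150 pM libraries 8 and 10 as well, it was 68.7% of the genes against 15.0% of the others, over 7 libraries. Leaving out 15 pM library 4 and DMSO library 2 from the 15 gave 65.2% against 10.8%. None of these settings left out 15 pM library 2. Its median deviation of -0.85 was the largest in size among the 10 rotenone libraries. How far the shares rest on that library was not tested.

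**Figure D5:**
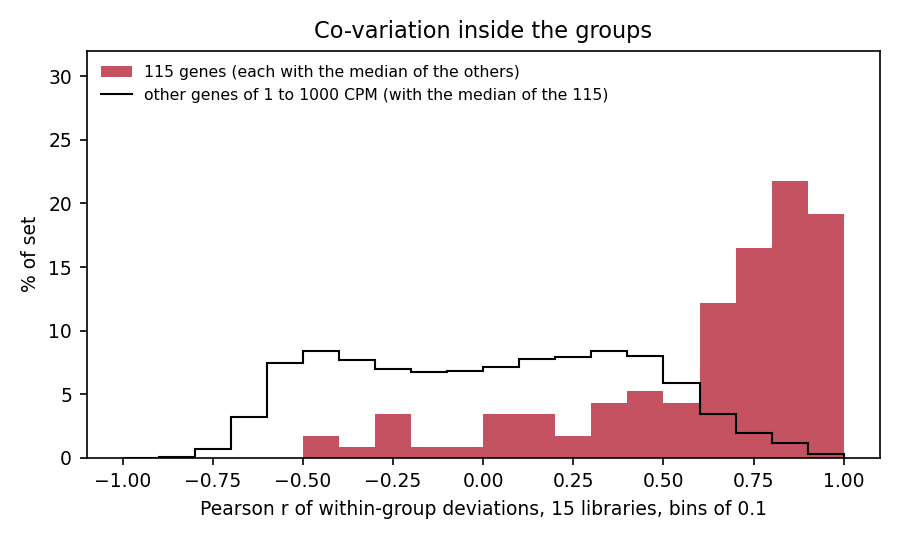
Distribution of Pearson's r between each gene's within-group deviations and the median deviation of the 115 genes over 15 libraries, as a percent of each set. The 115 genes have a median r of 0.73, and the 13558 other genes of 1 to 1000 CPM have a median of 0.03.

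The fold changes are given by band of r as a description only. A gene that spreads widely inside the groups can meet the rule only with a large difference from DMSO. The rule thus ties spread and fold change together, and how r goes with spread was not tested. The 47 genes with r above 0.8 had median log2 fold changes of -2.14 at 15 pM and -2.64 at 150 pM. For the 38 genes with r of 0.5 to 0.8 the medians were -2.26 and -2.67. They were -1.43 and -1.53 for the 21 genes with r of 0 to 0.5, and -1.05 and -1.14 for the 9 genes below 0. Of the 61 genes at least 4-fold lower at both doses, 56 had r above 0.5. DMSO library 2 was the highest control for 79 of the 85 genes with r above 0.5, and for 4 of the 9 below 0. The bands of r were formed from the same values, in which DMSO library 2 lay high, so they favour these counts.

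Those 9 genes had a different pattern in 15 pM library 4, which was the lowest of the 15 pM group for 7 of them. The third most abundant gene of the set in DMSO was one. It stood at 66.6, 113, 88.4, 16.9 and 91.0 CPM in 15 pM libraries 1 to 5 and at 89.9, 153, 77.0, 64.6 and 48.8 CPM in 150 pM libraries 8 to 12. DMSO libraries held 214, 205, 162, 198 and 174 CPM. The ranges of the 2 doses overlapped widely with library 4 or without it, and the controls spread little.

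The fifth most abundant gene in DMSO, a short gene model of 351 bases, was another of the 9. It stood at 29.4, 81.1, 32.8, 1.15 and 53.6 CPM in 15 pM libraries 1 to 5. At 150 pM it stood at 33.5, 87.5, 0.437, 48.9 and 36.3 CPM in libraries 8 to 12. DMSO libraries held 220, 149, 111, 99.5 and 146 CPM. Libraries 15 pM 4 and 150 pM 10 were far below all others in this gene. The SE of its log2 fold change was 0.91 at either dose. It was not called at either dose.

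One of the 9 differed little from DMSO in level but had little spread. It stood at 4.90 ± 0.888 CPM at 15 pM, 5.27 ± 0.634 CPM at 150 pM and 6.73 ± 0.172 CPM in DMSO (SD, n = 5 each). The narrow controls, between 6.52 and 6.92 CPM, placed it in the set at 1.37-fold lower at 15 pM and 1.28-fold lower at 150 pM.

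The rule did not use gene length itself, but its limits on counts and CPM were not divided by length. The 115 genes were also of lower level than the 13673 genes, at a median of 4.97 against 9.57 CPM. The 115 gene models had a median of 2349 bases (quartiles 1164 and 3607), with lengths recovered from the deposited RPKM. The median was 2883 bases over the genes tested with a recovered length (14322 of 15834) and 2920 bases over those of 1 to 1000 CPM. Long models were fewer: 13.0% of the 115 genes were over 5000 bases, against 25.1% of the genes of 1 to 1000 CPM. Models under 1000 bases made up 20.9% of the 115, against 15.0%. All genes called lower by edgeR had a median of 3720 bases at 15 pM and 2392 bases at 150 pM. Inside the set, the 58 shorter genes had median log2 fold changes of -2.25 at 15 pM and -2.65 at 150 pM, and the 57 longer genes -1.87 and -2.07.

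Genes chosen without a library were then read in that library. With each 15 pM library left out in turn, the rule on the other 14 took 116 to 289 genes. The left-out library lay below all 5 DMSO libraries in 95.1% to 96.6% of them for libraries 1, 2, 3 and 5, and in 39.4% for library 4. In library 4 this is close to its own share over all genes of 1 to 1000 CPM, 36.7%. For left-out 150 pM libraries the share was 80.3% for library 8 and 94.1% to 95.8% for the other 4. In the other 9 rotenone libraries the share over all genes was 25.7% to 30.1%.

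Left-out DMSO libraries lay above all 10 rotenone libraries in 90.1%, 99.1%, 64.9%, 64.7% and 90.2% of the genes chosen without them, for libraries 1 to 5. Over all genes this share was 4.44% to 10.1%. The median log2 difference between a left-out DMSO library and the rotenone mean was 1.35 to 3.02. That between a left-out rotenone library and the DMSO mean was -0.41 in 15 pM library 4 and between -2.95 and -1.47 in the other 9. These shares are raised by the choice, since the libraries that remain chose genes that were extreme in them, and the 15 choices overlap.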

How the data were processed

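The TruSeq v2 kit used on total RNA, per the labels' protocols, gives reads without strand. The submitters' processing notes name featureCounts 1.4.6-p4, STAR 2.4.1d and CASAVA 1.8.2 without saying what each did. The genome build, the annotation and the handling of shared reads are not stated (not given in the sources used here), so near-identical or overlapping genes are uncertain. The authors deposited whole-number read counts per gene (26739 identifiers) and an RPKM table. Over 104835 values, the deposited RPKM gave 1 gene length (within 0.2%) for 100% of them when library totals were taken in turn down the rows, and for 7.91% with each library's own total. RPKM therefore served only to recover lengths.

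Counts were tested with edgeR 4.0.16 in R 4.3.3: quasi-likelihood F-test, two-sided, 15 libraries in 1 fit, TMM factors, filterByExpr (minimum count 10), Benjamini-Hochberg adjustment over 15834 genes, threshold 0.05. Test and rule were tried on simulated data. Log2 CPM used a prior count of 2. Alternatives were DESeq2 1.42.0, limma 3.58.1 (voom), other factors and filters, and left-out libraries. The printed identifiers are the gene with the highest DMSO mean and the one with the widest gap at a mean of 5 CPM or more. Lists of pathway and cell type genes could not be applied. The 115 genes, the lists and the bands were chosen with earlier results of these data known. The chi-square per degree of freedom of the 30 library pairs inside groups was 43.4 to 791, so none was treated as a copy.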

Additional observations from a re-analysis of the deposited data

Results flagged for a closer look

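Libraries far from the rest of their group were looked for in 12 sets of 5 values (summed CPM, share of counts and the 2 named genes, in 3 groups), where chance marks about 1 in 20. The summed level of the 115 genes in DMSO library 2 was 5859 CPM, against 2989 to 3452 CPM in the other controls. As a share of counts, the same genes took 0.570% of DMSO library 2, against 0.297% to 0.397% of the others, and this was not marked. The 12 sets thus overlap in the genes they measure. Nfu_g_1_004782 stood at 206 CPM in the same library, against 73.4 to 111 CPM in the others. Nfu_g_1_018030 stood at 542 CPM in 15 pM library 4, against 266 to 335 CPM in the other 4 libraries of that dose.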

How the results depend on the processing

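The rule took 75 genes with a filter of 1 CPM in 10 libraries, 57 with a mean of 5 to 1000 CPM, 30 with a lowest DMSO library at least 1.5 times the highest rotenone library, and 414 without 15 pM library 4 and 150 pM libraries 8 and 10. Leaving out single libraries gave 108 to 289. RLE, upper-quartile and no factors gave 110, 113 and 103 genes, of which 107, 107 and 88 were among the 115. The filter of 1 CPM kept 77 of the 115 genes, and edgeR called 53 lower at 15 pM, 67 lower at 150 pM and 2 between doses. Over all genes, in either direction, it then called 452, 453 and 1948, against 667, 896 and 2240 with the main filter. Calls at 15 pM numbered 52 with the 10 libraries alone, and 41 to 100 without single libraries. Calls at 150 pM were 78 to 110 without single libraries. Over all genes, in either direction, calls without single libraries were 258 to 1373 at 15 pM and 315 to 1942 at 150 pM. Between doses, 4 calls became 2 with library totals, 1 with limma voom or the 10 libraries alone (103 of the 115 tested), 11 with DESeq2, and 1 to 10 without single libraries; without 150 pM libraries 8 and 10, edgeR called 0 (22 at an unadjusted p under 0.05), and 0 (13) without 15 pM library 4 as well. Over all genes, edgeR called 861 and 1340 between doses with these libraries left out, against 2240 with all libraries. It called 1715 over all genes with library totals and 1043 with the 10 libraries alone. The cause was not tested. With the title number as a replicate block, edgeR called 0 of the 115 at 15 pM (114 at an unadjusted p under 0.05; 1 gene in all was called), with a median log2 fold change of -2.17. Deviations of same-numbered libraries correlated by -0.05 to 0.09, and 0 of 5 correlated best with its own number. The labels do not say whether an equal number marks a pair or a batch, and this was not tested. Against DMSO, the median log2 fold change of the 115 genes ran from -2.34 to -1.73 at 15 pM over the alternatives. At 150 pM it ran from -2.76 to -1.94. These medians and the 2 named genes kept their sign. The choice of genes had already set that sign, so nothing is read from it. Genes under 10 counts are limited by depth.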
